A study of Drosophila melanogaster with 12 samples.

Results

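The genotype by diet interaction is, for each gene, the log2 change on high sugar in mlx1 mutant larvae minus the log2 change on high sugar in wild-type larvae. It was measured by RNA sequencing of whole Drosophila melanogaster larvae of the third instar in all 12 libraries of the study, 3 in each of 4 groups. Of 16413 gene names in the count table, 10045 had enough counts to be tested, and 692 of them (6.89%) passed the test. The mlx1 larvae are null for Mlx, and the control larvae are labelled wild type. In both genotypes the larvae were raised on food with 10% yeast. The high sugar group was moved to food with 10% yeast and 20% sucrose and collected after 8 h, and the low sugar group was moved to new 10% yeast food and collected after 1.5 h. Diet and hours since the move therefore cannot be told apart within a genotype, while an effect of the hours that is equal on the log scale in both genotypes drops out of the interaction. There is 1 mutant line and 1 control line, so the effect of the mlx1 allele and that of the rest of each line's genome cannot be told apart. The labels do not say whether libraries A, B and C of a group came from separate cultures, so the p-values measure only the spread between these libraries.

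Mlx is a basic helix-loop-helix leucine zipper protein that binds DNA together with its partner Mondo. Mondo proteins are activated by phosphorylated sugars inside the cell, and their mammalian counterpart ChREBP, with Mlx, switches on genes of glycolysis and fat synthesis in the liver when carbohydrate is eaten. In fly larvae, Mondo and Mlx are needed to tolerate a diet rich in sugar. An interaction below 0 means that a gene's level on high sugar, relative to low sugar, was lower in mlx1 larvae than in wild type, and an interaction above 0 means that it was higher.

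The gene bigmax, which encodes Mlx, checks the labels. It had 1.08, 0.823 and 0.771 CPM (counts scaled to library size) in mlx1 larvae on high sugar and 0.896, 0.691 and 0.494 CPM in mlx1 larvae on low sugar. Wild-type larvae had 30.5, 34.1 and 33.3 CPM on high sugar and 26.2, 27.2 and 27.7 CPM on low sugar. Every mlx1 library was far below every wild-type library, on both diets, and the interaction was 0.07 ± 0.25 (log2 ± SE, as for all log2 values below; adjusted p = 0.95). Library totals ranged from 8924342 to 12507970 counts. The libraries also differed in cuticle protein genes, whose mean level was lowest in wild type on high sugar C (2.99 on the log2 CPM scale) and highest in wild type on low sugar B (6.29). Whole larvae mix many tissues, and fewer cells of a type and less RNA per cell cannot be told apart in any value below.

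Of the 692 genes, 333 (3.32% of those tested) had an interaction above 0 and 359 (3.57%) an interaction below 0, by edgeR's quasi-likelihood test at a Benjamini-Hochberg adjusted p under 0.05. In 317 of them (3.16%) the log2 responses of the genotypes lay 1 or more apart. At an unadjusted p under 0.05 there were 2401 genes (23.9%). The sugar response itself was called in 2941 genes (29.3%) in mlx1 larvae and in 2318 genes (23.1%) in wild type, from the same fit. Among the 2941 genes that responded in mlx1 larvae, 486 (16.5%) had a called interaction, and among the 2318 that responded in wild type, 368 (15.9%) had one. The 2 genotypes responded in the same direction in 1223 genes and in opposite directions in 51.

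The 692 genes fell into classes by where the sugar response was called. It was gained in 313 genes (3.12% of those tested), called in mlx1 larvae and not in wild type, and lost in 195 genes (1.94%), called in wild type and not in mlx1 larvae. In 87 genes (0.866%) it had the same direction in both genotypes and was enlarged in mlx1 larvae, in 35 (0.348%) it was reduced, in 51 (0.508%) it was reversed, and in 11 (0.11%) it was called in neither. Among the lost responses, 116 were rises in wild type, with a median change of -0.11 in mlx1 larvae and 0.97 in wild type, and 79 were falls, with medians of 0.18 and -0.84. A response that is not called in mlx1 larvae is not shown to be 0: in 72 of the 116 lost rises the mlx1 estimate was under 0.25 of the wild-type one in size, and in 78 it had the opposite sign. Among the gained responses, 170 were rises, with medians of 0.89 in mlx1 larvae and -0.13 in wild type, and 143 were falls, with medians of -0.85 and 0.09.

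Leaving out 1 library moved the count of called interactions. It was 271 without mlx1 high sugar A, 312 without mlx1 high sugar C, 335 without mlx1 low sugar C, 281 without wild type high sugar B, 290 without wild type low sugar B and 1021 without mlx1 low sugar B, and between 490 and 670 without any 1 of the other 6 libraries. All 692 genes kept their direction in each of these 12 fits, and 237 kept their call in all 12. A gene described below kept its call in all 12 unless the libraries without which it lost the call are named or counted.

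**Figure D1:**
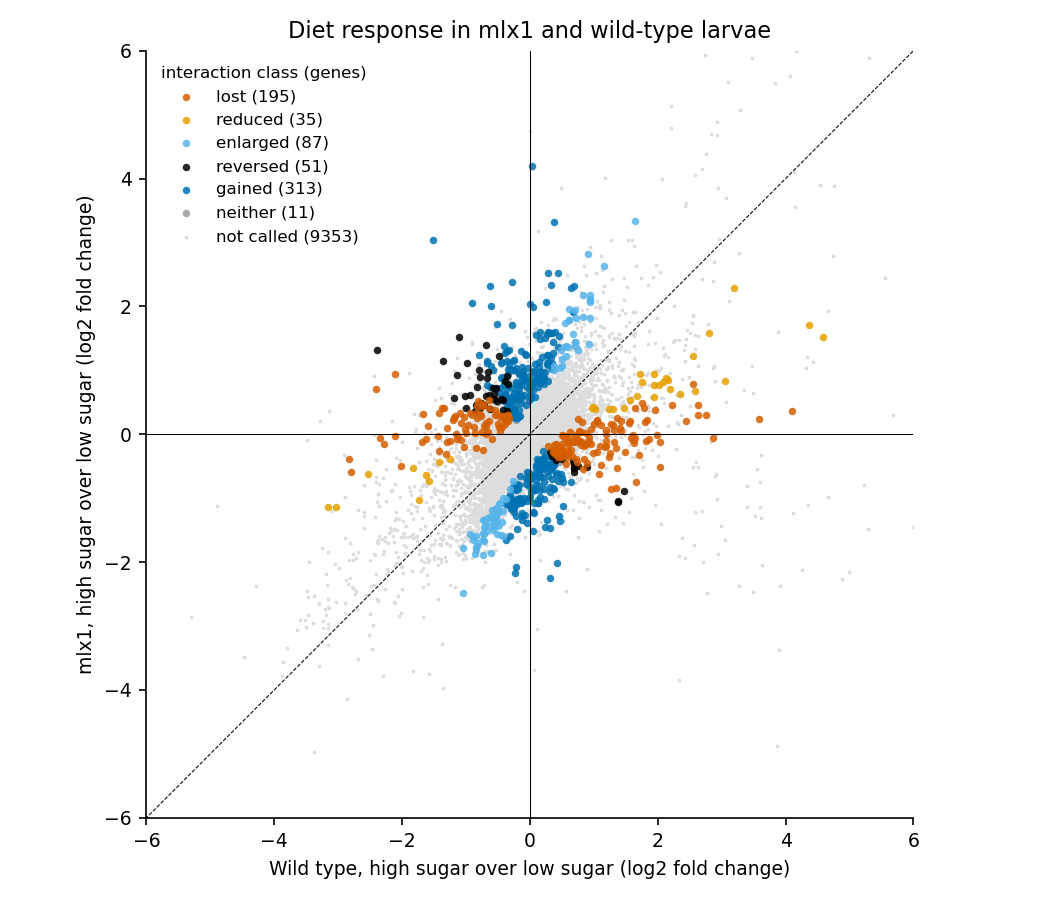
Sugar response of each of the 10045 tested genes in mlx1 larvae (vertical axis, log2 high over low sugar) against that in wild-type larvae (horizontal axis, log2 high over low sugar). Grey points are the 9353 genes with no called interaction, and colours mark the 692 called genes by class; lost genes lie along the horizontal axis, gained genes along the vertical axis and reversed genes at the upper left and lower right. The dashed line marks equal responses, and 2 genes lie outside the axes.

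Genotype was also compared within each diet, in the same fit and from the same libraries. The genotypes differed in 1392 genes (13.9%) on high sugar and in 361 genes (3.59%) on low sugar. For the 116 lost rises, the genotype effect was called on high sugar alone in 74, on low sugar alone in 9, on both in 12 and on neither in 21. For the 170 gained rises these counts were 112, 11, 6 and 41, and for the 143 gained falls they were 86, 15, 4 and 38. The interaction is also the genotype effect on high sugar minus that on low sugar. Genes called for it were thus chosen for unequal genotype effects, and these counts are no further test.

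The pentose phosphate pathway had the largest share of called genes among the lists examined. This pathway branches off glycolysis at glucose-6-phosphate and yields NADPH, the reducing agent of fat synthesis, and ribose for nucleotides. Of its 7 measured genes, 6 (85.7%, against 3.57% of all genes) had a called interaction below 0 and none above, with a list median of -1.62 against 0.01 over all genes. Between 4 and 6 of them were called when any 1 library was left out. The lists here and below were chosen with earlier results of these data known. Their shares describe the lists and are not independent support.

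Zw (X:19561333-19566386 in the coordinates of the table) encodes glucose-6-phosphate dehydrogenase, the entry step of the pathway. It had 29.5, 33.0 and 29.5 CPM in mlx1 larvae on high sugar and 27.1, 25.3 and 22.5 CPM on low sugar, against 285, 279 and 327 CPM in wild-type larvae on high sugar and 55.4, 38.6 and 38.4 CPM on low sugar. The wild-type libraries on high sugar stood alone, above the other 9. The change was 0.30 ± 0.15 in mlx1 larvae (adjusted p = 0.149) and 2.75 ± 0.15 in wild type (adjusted p = 4.56e-07), and the interaction was -2.46 ± 0.21 (adjusted p = 0.000117). Pgd (X:2039169-2042599), 6-phosphogluconate dehydrogenase, the other step that makes NADPH, had 131, 153 and 139 CPM in mlx1 larvae on high sugar and 169, 131 and 124 CPM on low sugar. In wild type it had 824, 808 and 946 CPM on high sugar and 228, 211 and 212 CPM on low sugar. Its mlx1 libraries overlapped between the diets while the wild-type ones did not, and the interaction was -1.99 ± 0.18 (adjusted p = 0.000169).

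Tal (Taldo; 2R:19827933-19829637), transaldolase, and CG8036 (3R:4493590-4499424), transketolase, return the carbon of the pathway to glycolysis. Tal had 210.0, 240.2 and 260.1 CPM in mlx1 larvae on high sugar and 285, 198 and 234 CPM on low sugar, against 905, 846 and 1078 CPM in wild-type larvae on high sugar and 319.8, 283 and 326 CPM on low sugar. CG8036 had 774, 779 and 782 CPM in mlx1 larvae on high sugar and 1052, 675 and 716 CPM on low sugar, against 2784, 2800.3 and 3122 CPM in wild-type larvae on high sugar and 1083, 803 and 884 CPM on low sugar. Both rose in wild type, with high and low sugar libraries apart, and neither was called in mlx1 larvae, where the diets overlapped. The interactions were -1.62 ± 0.21 (adjusted p = 0.00158) for Tal and -1.72 ± 0.23 (adjusted p = 0.00178) for CG8036. The gluconolactonase gene CG17333 (Pgls) had an interaction of -0.999 ± 0.21 (adjusted p = 0.0179) and lost its call without mlx1 high sugar A or wild type low sugar B. The epimerase gene CG30499 (Rpe), which was not called in wild type and fell in mlx1 larvae, had one of -0.67 ± 0.16 (adjusted p = 0.0354), with calls in 2 of the 12 fits that leave out a library. Rpi, ribose-5-phosphate isomerase, was not called, at -0.99 (adjusted p = 0.164).

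**Figure D2:**
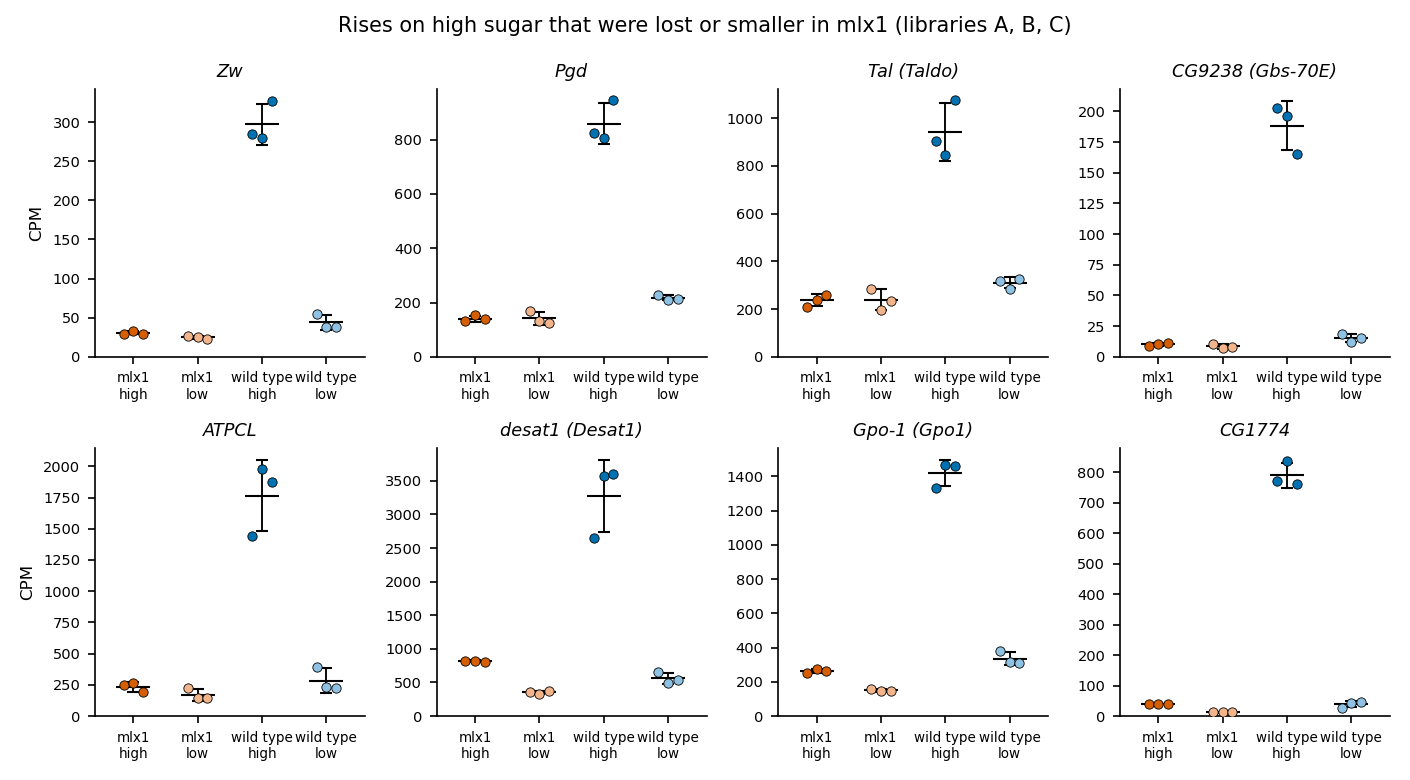
Normalized expression (CPM, linear axis from 0) of 8 genes that rose on high sugar in wild type and whose response was lost or reduced in mlx1 larvae. Points are the 3 libraries of each group, and bars are the mean ± SD; in each panel the wild-type libraries on high sugar lie above all others.

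Fat synthesis split. Of 20 measured genes of fatty acid and triglyceride synthesis, 6 (30.0%, against 3.57% of all genes) had a called interaction below 0. None had a called one above, with a median of -0.52 and 5 estimates above 0. Leaving out mlx1 high sugar A or wild type high sugar B left 3 calls, and leaving out mlx1 low sugar B gave 11. ATPCL (2R:11881036-11888795), ATP citrate lyase, which makes acetyl-CoA in the cytosol, had 246, 263 and 192 CPM in mlx1 larvae on high sugar and 225, 141 and 146 CPM on low sugar. Wild-type larvae had 1445, 1977 and 1876 CPM on high sugar and 396, 229 and 226 CPM on low sugar. The mlx1 libraries of the diets overlapped, the wild-type ones lay far apart, and the interaction was -2.18 ± 0.36 (adjusted p = 0.00588). The desaturase gene desat1 (3R:8265322-8273338), whose product puts the first double bond into fatty acids, kept a rise in mlx1 larvae, with 824, 825 and 809 CPM on high sugar and 358, 323 and 375 CPM on low sugar. Wild-type larvae had 2651, 3564 and 3600.3 CPM on high sugar and 655, 486 and 536 CPM on low sugar. The diets did not overlap in either genotype, and the rise was 1.22 ± 0.14 in mlx1 larvae and 2.55 ± 0.15 in wild type, a difference of -1.33 ± 0.20 (adjusted p = 0.00321).

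AcCoAS, acetyl-CoA synthase, rose by 2.29 ± 0.14 in mlx1 larvae and by 3.19 ± 0.14 in wild type, with an interaction of -0.90 ± 0.19 (adjusted p = 0.0176) that was not called without mlx1 high sugar A, mlx1 high sugar C or wild type high sugar B. CG3523 (FASN1), fatty acid synthase, rose by 2.43 ± 0.18 in mlx1 larvae and by 2.68 ± 0.19 in wild type, and its interaction was -0.26 ± 0.25 (adjusted p = 0.566). ACC, acetyl-CoA carboxylase, rose by 1.75 ± 0.16 and 2.54 ± 0.17 in mlx1 and wild-type larvae, and its interaction of -0.79 ± 0.22 missed the threshold (adjusted p = 0.0545). The level of both was lower in mlx1 larvae on each diet, by -1.95 ± 0.18 on high sugar and -1.70 ± 0.18 on low sugar for CG3523 (log2). So for these genes the genotypes differed in level, and a difference in the sugar response was not called.

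Glycerol phosphate, the backbone of triglycerides, is made by the product of Gpdh (Gpdh1) and oxidized in mitochondria by that of Gpo-1 (2R:11745257-11750260), a gene named after its values were seen. Gpo-1 had 252, 274 and 266 CPM in mlx1 larvae on high sugar and 157, 145 and 147 CPM on low sugar, against 1331, 1466 and 1463 CPM in wild-type larvae on high sugar and 378, 318 and 307 CPM on low sugar. All 6 mlx1 libraries were below all 6 wild-type libraries, and the rise was 0.82 ± 0.10 in mlx1 larvae and 2.09 ± 0.10 in wild type. The interaction was -1.27 ± 0.14 for Gpo-1 (adjusted p = 0.000626) and -0.998 ± 0.16 for Gpdh (adjusted p = 0.00447). The acyltransferase gene fu12 (Agpat2), which acts on the way to triglycerides and phospholipids, also had a reduced rise, of 0.63 ± 0.16 in mlx1 larvae and 2.36 ± 0.17 in wild type, and an interaction of -1.72 ± 0.23 (adjusted p = 0.00178). Acsl, which activates long-chain fatty acids, rose by 1.19 ± 0.16 in wild type and was not called in mlx1 larvae (-0.18 ± 0.16), with an interaction of -1.37 ± 0.22 (adjusted p = 0.00518).

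The largest lost rise by estimate among the genes named here was that of desat2, another desaturase gene, named after its values were seen, at -3.74 ± 0.84 (adjusted p = 0.0237). It was under 1 CPM in every library but the wild-type ones on high sugar, which had 3.03, 6.28 and 4.97 CPM, and it lost its call without mlx1 high sugar A, mlx1 low sugar A, wild type high sugar B or wild type low sugar B, and without exons that overlap another gene (adjusted p = 0.0546). Among genes with a mean of 10 CPM or more in 1 group, as the naming rule asked, the largest lost rise was in a storage sugar gene. CG9238 (Gbs-70E; 3L:14534037-14544075), a subunit that tethers protein phosphatase to glycogen, had 8.89, 10.4 and 10.9 CPM in mlx1 larvae on high sugar and 10.5, 6.82 and 8.21 CPM on low sugar. The wild-type libraries held 203, 196 and 165 CPM on high sugar and 18.9, 12.4 and 15.6 CPM on low sugar. The high sugar group of wild type was again alone, and the change was 0.24 ± 0.18 in mlx1 larvae and 3.59 ± 0.19 in wild type. The interaction was -3.35 ± 0.26 (adjusted p = 7.29e-05), and it lay between -3.51 and -3.16 when any 1 library was left out. Of 16 measured genes of gluconeogenesis, trehalose and glycogen, 4 (25.0%, against 3.57% of all genes) had a called interaction below 0. None had a called one above, with 6 estimates above 0. The count of 4 was 2 without mlx1 high sugar A, mlx1 high sugar C or wild type low sugar B. The other members called were the trehalose phosphatase gene CG5171 (-1.24 ± 0.18, adjusted p = 0.00317), the glycogen branching enzyme gene CG33138 (AGBE; -1.76 ± 0.38, adjusted p = 0.0218, not called without those same 3 libraries) and UGP, which makes UDP-glucose (-1.08 ± 0.27, adjusted p = 0.0361, called in 6 of 12 fits).

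In glycolysis itself, 3 of 12 genes (25.0%, against 3.57% of all genes) had a called interaction below 0. None had a called one above, with a median of -0.33 and 2 estimates above 0. Pgi, phosphoglucose isomerase, rose by 0.42 ± 0.14 in mlx1 larvae and by 1.47 ± 0.14 in wild type, with an interaction of -1.06 ± 0.19 (adjusted p = 0.00952). PyK, pyruvate kinase, the last step, had 927, 887 and 883 CPM in mlx1 larvae on high sugar and 955, 656 and 655 CPM on low sugar, against 2003, 1960.2 and 2203 CPM in wild-type larvae on high sugar and 951, 759 and 701 CPM on low sugar. Its mlx1 libraries overlapped between the diets, the wild-type ones did not, and the interaction was -1.10 ± 0.22 (adjusted p = 0.0142). Ald, aldolase, had -0.57 ± 0.12 (adjusted p = 0.0206) and lost its call without mlx1 high sugar A or wild type low sugar B. The remaining 9 genes were not called, Pfk at -0.41 (adjusted p = 0.303) and Hex-A at -0.29 (adjusted p = 0.352) among them.

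The largest reduced rises that the naming rule found lay in an adjacent pair of genes on 3R. CG1774 (3R:27418525-27420441), of the acyl-CoA thioesterase family, had 39.4, 40.5 and 40.5 CPM in mlx1 larvae on high sugar and 11.98, 11.9 and 13.1 CPM on low sugar. In wild type it had 772, 838 and 763 CPM on high sugar and 27.2, 41.5 and 46.9 CPM on low sugar. The diets were apart in both genotypes, the rise was 1.70 ± 0.17 in mlx1 larvae and 4.36 ± 0.18 in wild type, and the interaction was -2.66 ± 0.23 (adjusted p = 0.00013). Its neighbour CG1638 (3R:27416303-27418038) had an interaction of -3.07 ± 0.52 (adjusted p = 0.00649), at 2.71, 3.66 and 1.32 CPM in mlx1 larvae on high sugar against 27.8, 35.1 and 33.6 CPM in wild type on high sugar. CG32444 had -2.22 ± 0.22 (adjusted p = 0.00032).

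Among the genes that fell on high sugar in wild type and not, or less, in mlx1 larvae were some that break down amino acids. Of 19 measured genes of serine, glycine and one-carbon metabolism, 5 had a called interaction above 0 and 1 below (31.6%, against 6.89% of all genes). The median was 0.36, and between 5 and 8 were called when any 1 library was left out. CG6385 (Sardh; 2R:13641060-13643927), sarcosine dehydrogenase, had 120.1, 138 and 127 CPM in mlx1 larvae on high sugar and 171, 208 and 212 CPM on low sugar, against 21.5, 23.0 and 22.9 CPM in wild-type larvae on high sugar and 125, 126 and 138 CPM on low sugar. The high sugar group of wild type was far below the other 9 libraries, and the fall was -0.62 ± 0.10 in mlx1 larvae and -2.53 ± 0.11 in wild type. The interaction was 1.91 ± 0.15 (adjusted p = 7.29e-05). CG6188 (Gnmt; 3R:8500330-8501806), glycine N-methyltransferase, which makes sarcosine from glycine, had 176, 284 and 274 CPM in mlx1 larvae on high sugar and 280.3, 285 and 249 CPM on low sugar. Wild-type larvae had 76.5, 109 and 93.2 CPM on high sugar and 368, 467 and 529.7 CPM on low sugar. Its mlx1 libraries overlapped between the diets, its wild-type ones did not, and the interaction was 2.14 ± 0.28 (adjusted p = 0.00166).

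The products of Ahcy13 (Ahcy) and Cbs act in turn after methylation, that of Cbs on homocysteine. Ahcy13 had an interaction of 0.84 ± 0.16 (adjusted p = 0.00987), with a change of -0.19 ± 0.11 in mlx1 larvae and -1.03 ± 0.11 in wild type. Cbs (X:20916165-20920123), cystathionine beta-synthase, had 298, 331 and 366 CPM in mlx1 larvae on high sugar and 314, 249 and 238 CPM on low sugar, against 182, 171 and 178 CPM in wild-type larvae on high sugar and 317, 296 and 299 CPM on low sugar. The high sugar group of wild type was again the lowest group, with no overlap, and the interaction was 1.09 ± 0.17 (adjusted p = 0.00333). CG6415, the aminomethyltransferase of the glycine cleavage system, had 0.88 ± 0.19 (adjusted p = 0.0218) and lost its call without mlx1 high sugar C, mlx1 low sugar C or wild type high sugar B. In contrast, CG3999, the glycine decarboxylase of the same system, fell in mlx1 larvae: it had 66.6, 77.5 and 72.7 CPM on high sugar and 266, 157 and 197 CPM on low sugar, against 161, 164 and 174 CPM in wild-type larvae on high sugar and 186, 142 and 157 CPM on low sugar. The mlx1 libraries of the diets did not overlap, the wild-type ones did, and the interaction was -1.56 ± 0.24 (adjusted p = 0.00339). The serine synthesis genes aay, CG6287 and CG11899 rose in both genotypes, by 2.005, 1.51 and 1.57 in mlx1 larvae and by 2.25, 1.36 and 1.58 in wild type, and their interactions were not called (adjusted p = 0.575, 0.788 and 0.987).

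Glyoxylate and tyrosine breakdown held reversed responses, which rose in mlx1 larvae and fell in wild type. Spat (Agxt; X:6422981-6424759), an aminotransferase that turns glyoxylate into glycine, had 117, 124 and 136 CPM in mlx1 larvae on high sugar and 51.2, 48.5 and 43.5 CPM on low sugar, against 31.0, 38.2 and 39.0 CPM in wild-type larvae on high sugar and 57.2, 53.5 and 62.6 CPM on low sugar. The diets were apart in both genotypes, in opposite order, with changes of 1.40 ± 0.12 in mlx1 larvae and -0.68 ± 0.12 in wild type and an interaction of 2.08 ± 0.16 (adjusted p = 7.29e-05). CG18003 (Hao; 2R:6771052-6772441), a hydroxyacid oxidase, the kind of enzyme that makes glyoxylate, had 135, 154 and 188 CPM in mlx1 larvae on high sugar and 83.5, 75.2 and 78.5 CPM on low sugar. The wild-type libraries held 52.0, 45.8 and 49.1 CPM on high sugar and 81.9, 76.2 and 96.8 CPM on low sugar. The low sugar libraries of the genotypes overlapped, high sugar lay above them in mlx1 larvae and below them in wild type, and the interaction was 1.80 ± 0.19 (adjusted p = 0.000387).

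Phenylalanine and tyrosine are degraded through Hn, CG1461 (Tat), CG11796 (Hpd), hgo, CG9363 (GstZ2) and Faa in turn. The hgo gene (2L:11136393-11138565), homogentisate dioxygenase, had 203, 169.6 and 222 CPM in mlx1 larvae on high sugar and 129.9, 145 and 127 CPM on low sugar, against 24.3, 19.0 and 17.6 CPM in wild-type larvae on high sugar and 55.4, 46.8 and 36.3 CPM on low sugar. All mlx1 libraries were above all wild-type ones, and the interaction was 1.75 ± 0.24 (adjusted p = 0.0019), from a rise in mlx1 larvae (0.57 ± 0.16) and a fall in wild type (-1.19 ± 0.17). Hn (3L:7753553-7756266), phenylalanine hydroxylase, had 321, 258 and 365 CPM in mlx1 larvae on high sugar and 146, 142 and 137 CPM on low sugar, against 153, 115 and 140.2 CPM in wild-type larvae on high sugar and 207, 140.0 and 140.2 CPM on low sugar. Only the mlx1 libraries on high sugar stood apart, and the interaction was 1.41 ± 0.25 (adjusted p = 0.00752). CG9363 had 1.25 ± 0.23 (adjusted p = 0.00945) and was not called when each gene was read from its exon entry with the highest mean (0.74, adjusted p = 0.15). CG1461 had 1.00 ± 0.27 (adjusted p = 0.0485) and kept its call in 4 of 12 fits, and CG11796 and Faa missed the threshold at 1.21 (adjusted p = 0.0596) and 0.94 (adjusted p = 0.0542). CG1461, CG9363, CG11796, Faa, CG6415, Ahcy13, CG17333, CG30499, CG6287 and CG11899 were named after their values were seen, as were Rpi, Pfk, Hex-A, whd, Hsl, foxo and Prx2540-2, which were not called.

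Other amino acid genes went both ways. Of 28 measured, 6 had a called interaction above 0 and 2 below (28.6%, against 6.89% of all genes), with a median of 0.04. The tryptophan dioxygenase gene v fell by less in mlx1 larvae (-0.44 ± 0.12) than in wild type (-1.42 ± 0.12), with an interaction of 0.98 ± 0.17 (adjusted p = 0.0077). Arginase, arg, had 1.11 ± 0.20 (adjusted p = 0.00872), which was 0.43 (adjusted p = 0.46) without exons that overlap another gene, so its value is uncertain. The gene asparagine-synthetase (AsnS; 3L:21166218-21168073) had 32.1, 43.3 and 36.1 CPM in mlx1 larvae on high sugar and 115, 191 and 163 CPM on low sugar, against 77.0, 109 and 87.5 CPM in wild-type larvae on high sugar and 73.7, 129 and 116 CPM on low sugar. The diets overlapped in wild type and were apart in mlx1 larvae, and the interaction was -1.85 ± 0.33 (adjusted p = 0.00952).

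**Figure D3:**
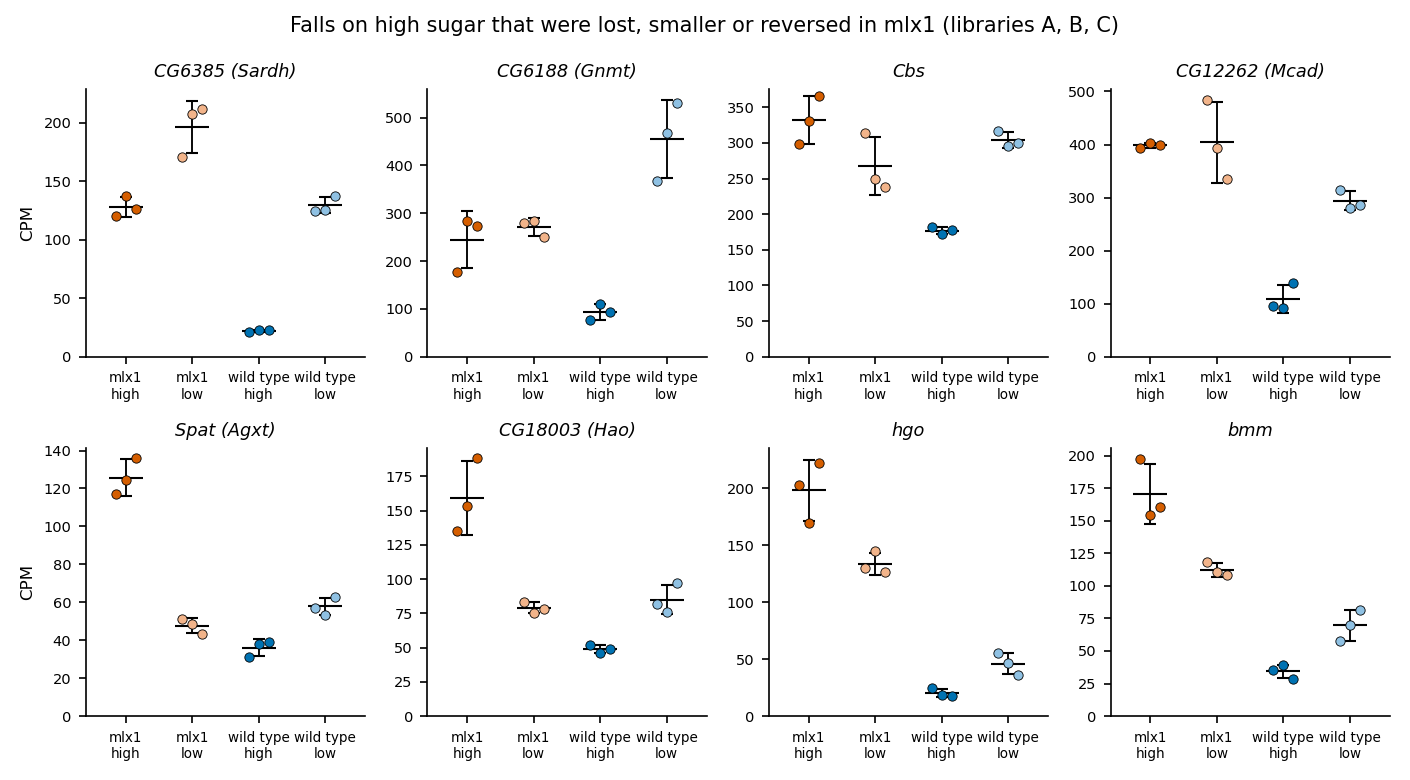
Normalized expression (CPM, linear axis from 0) of 8 genes that fell on high sugar in wild type and whose response was lost, reduced or reversed in mlx1 larvae. Points are the 3 libraries of each group, and bars are the mean ± SD; in each panel the wild-type libraries on high sugar are the lowest group by mean.

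Fat breakdown held a similar pattern for some of its genes. Of 25 measured genes of lipolysis and beta-oxidation, 3 had a called interaction above 0 and 2 below (20.0%, against 6.89% of all genes). The median was 0.09, and 4 to 7 were called when any 1 library was left out. The lipase gene brummer, bmm (3L:14769596-14779512), which mobilizes stored triglyceride, had 197, 155 and 161 CPM in mlx1 larvae on high sugar and 118, 110.4 and 108 CPM on low sugar. In wild type it had 35.2, 38.8 and 28.7 CPM on high sugar and 57.5, 70.2 and 81.1 CPM on low sugar. No mlx1 library overlapped a wild-type one, and the order of the diets was opposite in the genotypes: the change was 0.61 ± 0.15 in mlx1 larvae (adjusted p = 0.00911) and -1.02 ± 0.15 in wild type (adjusted p = 0.000748). The interaction was 1.63 ± 0.21 (adjusted p = 0.00166).

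CG12262 (Mcad; 3L:7712450-7714572), medium-chain acyl-CoA dehydrogenase, had 394, 404 and 398 CPM in mlx1 larvae on high sugar and 485, 393 and 334 CPM on low sugar, against 94.9, 92.9 and 139 CPM in wild-type larvae on high sugar and 314, 281 and 286 CPM on low sugar. The high sugar group of wild type was far below the rest, wild type on low sugar was between it and the mlx1 libraries, the mlx1 diets overlapped, and the interaction was 1.41 ± 0.23 (adjusted p = 0.00556). The thiolase gene yip2, which acts at the last step of a round of beta-oxidation, had 0.99 ± 0.14 (adjusted p = 0.00321), with changes of 0.12 ± 0.10 in mlx1 larvae and -0.87 ± 0.10 in wild type. The 2 calls of this list below 0 were Acsl, described above beside fat synthesis (-1.37, adjusted p = 0.00518), and Lsd-1. Lsd-1, a perilipin of lipid droplets, had -0.83 ± 0.20 (adjusted p = 0.0293) and kept its call in 6 of 12 fits. The carnitine palmitoyltransferase gene whd (0.18, adjusted p = 0.566) and Hsl (0.57, adjusted p = 0.139) were not called.

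The reversed class held 36 genes that rose in mlx1 larvae and fell in wild type and 15 that did the opposite. CG33307 (2L:13839262-13841520) had the largest reversed interaction above 0 that the rule found, with 81.7, 95.6 and 93.3 CPM in mlx1 larvae on high sugar and 26.0, 32.0 and 36.5 CPM on low sugar, against 28.5, 24.6 and 34.0 CPM in wild-type larvae on high sugar and 61.4, 63.5 and 62.2 CPM on low sugar. The low sugar libraries of mlx1 larvae overlapped the high sugar libraries of wild type, the other groups were apart and higher, and the interaction was 2.62 ± 0.20 (adjusted p = 7.29e-05). Aph-4 (Alp4; 3R:26874651-26878262), an alkaline phosphatase, had the largest below 0, with 20.9, 21.9 and 19.1 CPM in mlx1 larvae on high sugar and 51.4, 36.1 and 41.3 CPM on low sugar. Wild-type larvae had 257, 295 and 337 CPM on high sugar and 109, 86.3 and 146 CPM on low sugar. All 4 groups were apart, and the changes were -1.06 ± 0.19 in mlx1 larvae and 1.38 ± 0.19 in wild type, an interaction of -2.44 ± 0.27 (adjusted p = 0.000565).

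The cytochrome P450 genes Cyp28d2 and Cyp28d1 lie next to each other on 2L and had opposite interactions. Cyp28d2 (2L:5207267-5209345) had 56.1, 49.7 and 40.2 CPM in mlx1 larvae on high sugar and 107, 73.2 and 89.3 CPM on low sugar, against 155.7, 196 and 241 CPM in wild-type larvae on high sugar and 84.3, 61.5 and 67.2 CPM on low sugar. Cyp28d1 (2L:5210460-5212445) had 115, 123 and 119 CPM in mlx1 larvae on high sugar and 75.9, 115 and 94.0 CPM on low sugar, against 40.7, 45.2 and 49.8 CPM in wild-type larvae on high sugar and 139.7, 136 and 157 CPM on low sugar. On high sugar the genotypes did not overlap for either gene, and mlx1 larvae were lower for Cyp28d2 and higher for Cyp28d1. The interactions were -2.36 ± 0.28 (adjusted p = 0.000933) for Cyp28d2 and 1.996 ± 0.20 (adjusted p = 0.00032) for Cyp28d1. Over the 72 measured P450 genes, 5 had a called interaction above 0 and 3 below (11.1%, against 6.89% of all genes), and 34 estimates were above 0. With the library letter fitted as a replicate block, 4 were called. The count of 8 was 2 without mlx1 high sugar A, mlx1 high sugar C, mlx1 low sugar A, mlx1 low sugar C or wild type high sugar B, 3 without wild type low sugar B, 4 without mlx1 high sugar B or wild type low sugar C and 5 without wild type high sugar C.

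Growth genes held enlarged and gained responses. Insulin and TOR signalling promote growth when food is plentiful, and Thor (4E-BP), a brake on translation, is switched on when that signalling is low. Of 33 measured genes of this control, 4 had a called interaction above 0 and 2 below (18.2%, against 6.89% of all genes), with a median of -0.06. Thor (2L:3478434-3479612) had 1272, 1028 and 1237 CPM in mlx1 larvae on high sugar and 125, 247 and 199 CPM on low sugar, against 642, 669 and 748 CPM in wild-type larvae on high sugar and 319, 313 and 289.9 CPM on low sugar. On high sugar every mlx1 library was above, and on low sugar every mlx1 library below, the wild-type ones. Thor rose by 2.63 ± 0.21 in mlx1 larvae and by 1.16 ± 0.20 in wild type, with an interaction of 1.47 ± 0.27 (adjusted p = 0.0102). The list's count was 2 without mlx1 high sugar A, mlx1 high sugar C, mlx1 low sugar C, wild type high sugar B or wild type low sugar B, and 3 without mlx1 high sugar B, wild type high sugar A or wild type low sugar C.

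Rheb (3R:1394643-1396213), the activator of TOR, had 124, 107 and 113 CPM in mlx1 larvae on high sugar and 61.3, 60.3 and 64.2 CPM on low sugar, against 82.9, 81.0 and 81.8 CPM in wild-type larvae on high sugar and 75.1, 67.2 and 67.8 CPM on low sugar. Its interaction was 0.66 ± 0.12 (adjusted p = 0.0108). InR, the insulin receptor, had 0.81 ± 0.19 (adjusted p = 0.0296), and Sesn, sestrin, an inhibitor of TOR, had 0.75 ± 0.19 (adjusted p = 0.0409), and each kept its call in 3 of 12 fits. The list's 2 calls below 0 were Pi3K21B (-1.03, adjusted p = 0.0287) and Spargel (-0.92, adjusted p = 0.0411), the latter named after its values were seen. Their changes were -0.61 and -1.50 in mlx1 larvae and 0.43 and -0.58 in wild type. Whether Pi3K21B and Spargel kept their calls in all 12 fits is not stated here. The insulin-like peptide gene Ilp6 (0.67 ± 0.28, adjusted p = 0.169) and foxo (0.02, adjusted p = 0.976) were not called. The single call among 21 nutrient-responsive transcription factors was above 0 (4.76%, against 3.32% of all genes). It was CG18619 (REPTOR-BP), at 1.00 ± 0.26 (adjusted p = 0.0411), called in 4 of 12 fits.

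Ribosome biogenesis genes process ribosomal RNA and assemble ribosomes. Of 35 measured, 33 fell on high sugar in mlx1 larvae (15.7% of all genes did), with a median change of -1.34, and 29 fell in wild type (11.6% of all genes did), with a median of -0.74. The interaction was called below 0 in 14 (40.0%, against 3.57% of all genes) and above 0 in none, with a median of -0.64 and 2 estimates above 0. With the library letter fitted as a replicate block, 6 were called. Nopp140 (3L:21825874-21829785), a nucleolar chaperone, had 95.9, 106 and 102 CPM in mlx1 larvae on high sugar and 436, 316 and 354 CPM on low sugar, against 185, 234 and 143 CPM in wild-type larvae on high sugar and 306, 283 and 266 CPM on low sugar. High sugar lay below low sugar in both genotypes, and lowest in mlx1 larvae, with an interaction of -1.26 ± 0.24 (adjusted p = 0.0108). The nucleolar genes l(1)1Bi (Mybbp1A; -1.15 ± 0.17, adjusted p = 0.00322), pit (-0.95 ± 0.18, adjusted p = 0.0105) and Nnp-1 (-0.94 ± 0.19, adjusted p = 0.0158) were called in every fit as well. The count of 14 was less steady: it was 4 without wild type high sugar B or wild type low sugar B, 5 without mlx1 high sugar A or mlx1 low sugar C, 6 without mlx1 high sugar C, mlx1 low sugar A or wild type high sugar A, and 7 without mlx1 high sugar B or wild type low sugar A. Tif-IA, the initiation factor of RNA polymerase I, named after its values were seen, had -0.90 ± 0.19 (adjusted p = 0.0178) and lost its call without wild type high sugar B or wild type low sugar B.

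Cytosolic ribosomal protein genes went the other way by small amounts. Their median change on high sugar was 0.22 in mlx1 larvae and -0.19 in wild type, the interaction estimate was above 0 in 76 of 84, and its median was 0.40. In 18 (21.4%, against 3.32% of all genes) the interaction was called above 0, and in none below. With the library letter fitted as a replicate block, 10 were called. RpL28 (3L:3220911-3222960) had 1558, 1496 and 1611 CPM in mlx1 larvae on high sugar and 1227, 1366 and 1228 CPM on low sugar, against 1396, 1219 and 1265 CPM in wild-type larvae on high sugar and 1915, 1755 and 1548 CPM on low sugar. Its high sugar libraries were all above the low sugar ones in mlx1 larvae and all below them in wild type. The interaction was 0.72 ± 0.14 (adjusted p = 0.0148). It was 0.60 (adjusted p = 0.0507) without 3 libraries with low cuticle means (mlx1 low sugar A, wild type high sugar C and wild type low sugar A). Each of the 3 had the lowest cuticle mean of its group. In mlx1 low sugar these means were 3.52 for A, 6.21 for B and 4.56 for C (log2 CPM), so A was not far below C. The count of 18 was 1 without mlx1 high sugar A, mlx1 high sugar C, mlx1 low sugar C, wild type high sugar B or wild type low sugar B, 4 without mlx1 high sugar B or wild type high sugar C, 8 without mlx1 low sugar A, 9 without wild type low sugar A and 2 without those 3 libraries together. The median stayed between 0.34 and 0.45 under every setting tried. Mitochondrial ribosomal protein genes had 1 call in 70, below 0 (1.43%, against 3.57% of all genes). At an unadjusted p under 0.05 there were 7, and DESeq2 called 3. Only 14 of their estimates were above 0, with a median of -0.23. A fall on high sugar was called for 52 of them in mlx1 larvae (15.7% of all genes) and for 21 in wild type (11.6% of all genes). The difference between the genotypes itself was called only in the 1 gene above. The genes of respiration had no call in 19 and those of the proteasome none in 29 by edgeR's quasi-likelihood test. These 2 lists had 0 and 1 genes at an unadjusted p under 0.05 and none called by DESeq2.

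Among the gained responses, Prat2 (3L:6905099-6907976), which starts purine synthesis, had 21.6, 26.7 and 20.5 CPM in mlx1 larvae on high sugar and 2.77, 2.33 and 1.68 CPM on low sugar. The wild-type libraries held 6.41, 7.11 and 10.9 CPM on high sugar and 7.48, 4.67 and 6.60 CPM on low sugar. The mlx1 larvae were the highest group on one diet and the lowest on the other, with no overlap, while the wild-type diets overlapped, and the interaction was 2.95 ± 0.36 (adjusted p = 0.00113). No other of the 11 purine synthesis genes had a called interaction above 0, although 4 estimates were above 0, and bur, GMP synthase, had one of -0.73 ± 0.14 (adjusted p = 0.0118). CG6770 (2L:12045343-12046118), with no role given here, had the largest enlarged rise that the rule found: 4690.2, 3773 and 4854 CPM in mlx1 larvae on high sugar and 403, 717 and 756 CPM on low sugar, against 1277, 1317 and 1598 CPM in wild-type larvae on high sugar and 941, 693 and 602 CPM on low sugar. The diets were apart in both genotypes, and the interaction was 1.92 ± 0.33 (adjusted p = 0.00752). Prx2540-1 (Prx6b), a peroxiredoxin, had 2.95 ± 0.39 (adjusted p = 0.00178), but it has a near-identical copy, Prx2540-2 (Prx6c), at 0.46 ± 0.21 (adjusted p = 0.203), so the split of reads between them is uncertain.

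Hsp83 (3L:3192969-3197059), the fly HSP90, had a gained fall. It had 434, 668 and 649 CPM in mlx1 larvae on high sugar and 2456, 2175 and 3267 CPM on low sugar, against 1551, 2211 and 1477 CPM in wild-type larvae on high sugar and 2222, 1991 and 1921 CPM on low sugar. The mlx1 libraries on high sugar were the only group apart, and the interaction was -1.95 ± 0.29 (adjusted p = 0.00324). Hsc70-5, the mitochondrial HSP70, had -1.29 ± 0.24 (adjusted p = 0.0104). Hsp83 and Hsc70-5 were the 2 calls among 12 heat shock genes, both below 0 (16.7%, against 3.57% of all genes), and the list median was -0.79. That count was 4 without mlx1 low sugar B, wild type high sugar C or wild type low sugar A. In the replication list 2 of 28 genes had a called interaction below 0 (7.14%, against 3.57% of all genes). All 28 estimates were below 0, with a median of -0.39. Mcm10 had -1.28 ± 0.19 (adjusted p = 0.00325), with changes of -1.65 ± 0.14 in mlx1 larvae and -0.37 ± 0.14 in wild type, and Mcm2 had -0.63 ± 0.16 (adjusted p = 0.0361) and kept its call in 3 of 12 fits. The replication count was 6 without mlx1 low sugar B, 5 without wild type low sugar A, 2 without mlx1 high sugar B and 1 without any 1 of the other 9 libraries.

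**Figure D4:**
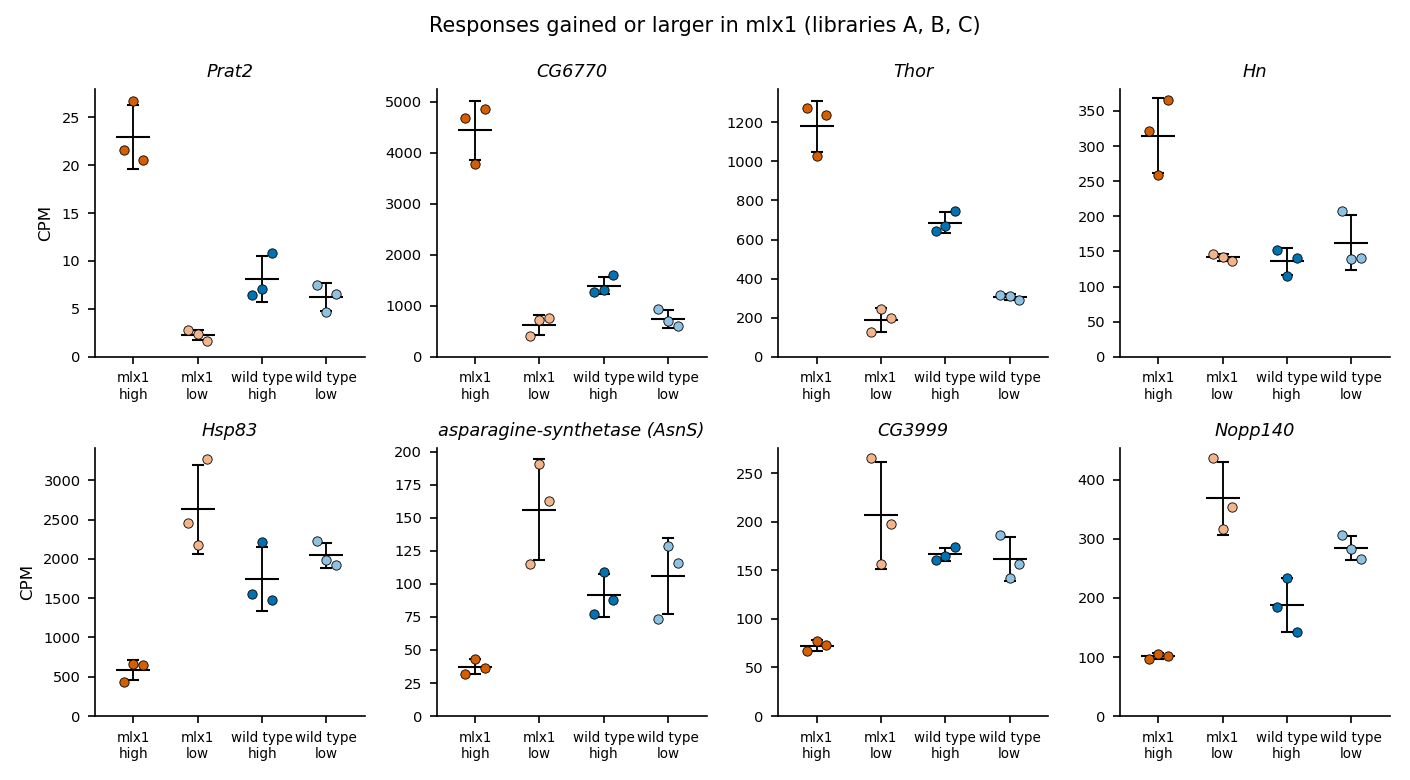
Normalized expression (CPM, linear axis from 0) of 8 genes with a gained or enlarged sugar response in mlx1 larvae. Points are the 3 libraries of each group, and bars are the mean ± SD. In each panel the high and low sugar libraries of mlx1 larvae do not overlap. A called sugar response in mlx1 larvae defines these classes, so this gap follows from the choice of genes.

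Some genes known as sugar-induced rose in both genotypes with no called interaction, which does not show that the responses were equal. The transcription factor gene sug (sugarbabe; 2R:8812072-8818149) had 37.6, 34.9 and 35.3 CPM in mlx1 larvae on high sugar and 3.99, 4.40 and 4.55 CPM on low sugar, against 193, 205 and 186 CPM in wild-type larvae on high sugar and 21.7, 27.8 and 25.2 CPM on low sugar. The mlx1 libraries were below the wild-type ones on each diet, and the rise was 3.06 ± 0.12 in mlx1 larvae and 2.97 ± 0.11 in wild type. The interaction was 0.09 ± 0.15 (adjusted p = 0.752). The activin gene daw (-0.15 ± 0.18, adjusted p = 0.66) and Mio, the table's name for Mondo (-0.08 ± 0.17, adjusted p = 0.804), also rose in both genotypes. The repressor gene cbt was near 0 in mlx1 larvae, at 0.217, 0.457 and 0.331 CPM on high sugar and 0.489, 0.605 and 0.198 CPM on low sugar, against 14.0, 10.5 and 10.4 CPM in wild-type larvae on high sugar and 5.95, 4.57 and 4.47 CPM on low sugar. Its interaction of -1.57 ± 0.50 was not called (adjusted p = 0.0816).

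Some large estimates came with a wide spread. Of 25 antimicrobial and immune peptides none was called by edgeR's quasi-likelihood test, although the median estimate was 1.67; 2 genes had an unadjusted p under 0.05, and DESeq2 called 0. Mtk, metchnikowin, had 62.3, 36.3 and 8.70 CPM in mlx1 larvae on high sugar and 0.896, 1.12 and 0.989 CPM on low sugar, against 4.50, 2.27 and 26.5 CPM in wild-type larvae on high sugar and 3.49, 1.89 and 1.85 CPM on low sugar. Libraries of the same group differed several-fold on high sugar, and the interaction was 2.93 ± 1.46 (adjusted p = 0.267). Amy-p, an amylase with a near-identical copy (Amy-d), had 3.49 ± 0.96 (adjusted p = 0.066).

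Tissue markers were set beside these results. Marker genes of muscle (17), neurons (13) and hemocytes (11) had no interaction called by edgeR's quasi-likelihood test, with 2, 1 and 1 genes at an unadjusted p under 0.05 and 1, 0 and 1 called by DESeq2. Over all 10045 genes these counts were 692 (6.89%), 2401 (23.9%) and 1202. Their summed level was 89830 to 96720 CPM for muscle, 1245 to 1363 CPM for neurons and 4616 to 5883 CPM for hemocytes in mlx1 larvae on high sugar, and 74190 to 87720, 855.7 to 1501 and 6337 to 7860 CPM in mlx1 larvae on low sugar. Wild-type larvae had 79360 to 85780, 1188 to 1409 and 6379 to 7231 CPM on high sugar and 58350 to 85160, 1209 to 1527 and 6597 to 7462 CPM on low sugar. Of 13 midgut markers, CG6295 (-2.43 ± 0.50, adjusted p = 0.022, not called without mlx1 high sugar C, wild type high sugar B or wild type low sugar B) and Vha100-4 (-1.21 ± 0.22, adjusted p = 0.00886) were called, both reversed. These 2 calls below 0 were 15.4% of the 13, against 3.57% of all genes. The summed level of the 13 was 3506 to 4627 CPM in mlx1 larvae on high sugar and 3216 to 4494 CPM on low sugar, against 4788 to 6469 CPM in wild-type larvae on high sugar and 2585 to 3827 CPM on low sugar. Of 8 fat body markers, 4 had enough counts to be tested and 1 was at 0 in every library. Of the 4, Lsd-1 and Rfabg (apolpp; -1.65 ± 0.37, adjusted p = 0.025, called in 6 of 12 fits) were called. The summed level of the 4 was 3432 to 4662 CPM in mlx1 larvae on high sugar and 5564 to 10260 CPM on low sugar, against 7097 to 11360 CPM in wild-type larvae on high sugar and 5363 to 7862 CPM on low sugar. On high sugar the midgut, fat body and hemocyte marker sums were thus lower in mlx1 larvae than in wild type. The muscle sum was higher, and none of these sums overlapped. A sum follows its most abundant genes. In mlx1 larvae the fat body and hemocyte sums were lower on high than on low sugar. The median change of their tested markers was instead 0.49 and 0.26. The fat body and hemocyte sums therefore do not show how most of their markers moved. For the midgut, 2 of the 13 interaction estimates were above 0, with a median of -0.73. The median change of the midgut markers was -0.06 in mlx1 larvae and 0.69 in wild type. The part of tissue make-up in the results above was not tested.

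**Figure D5:**
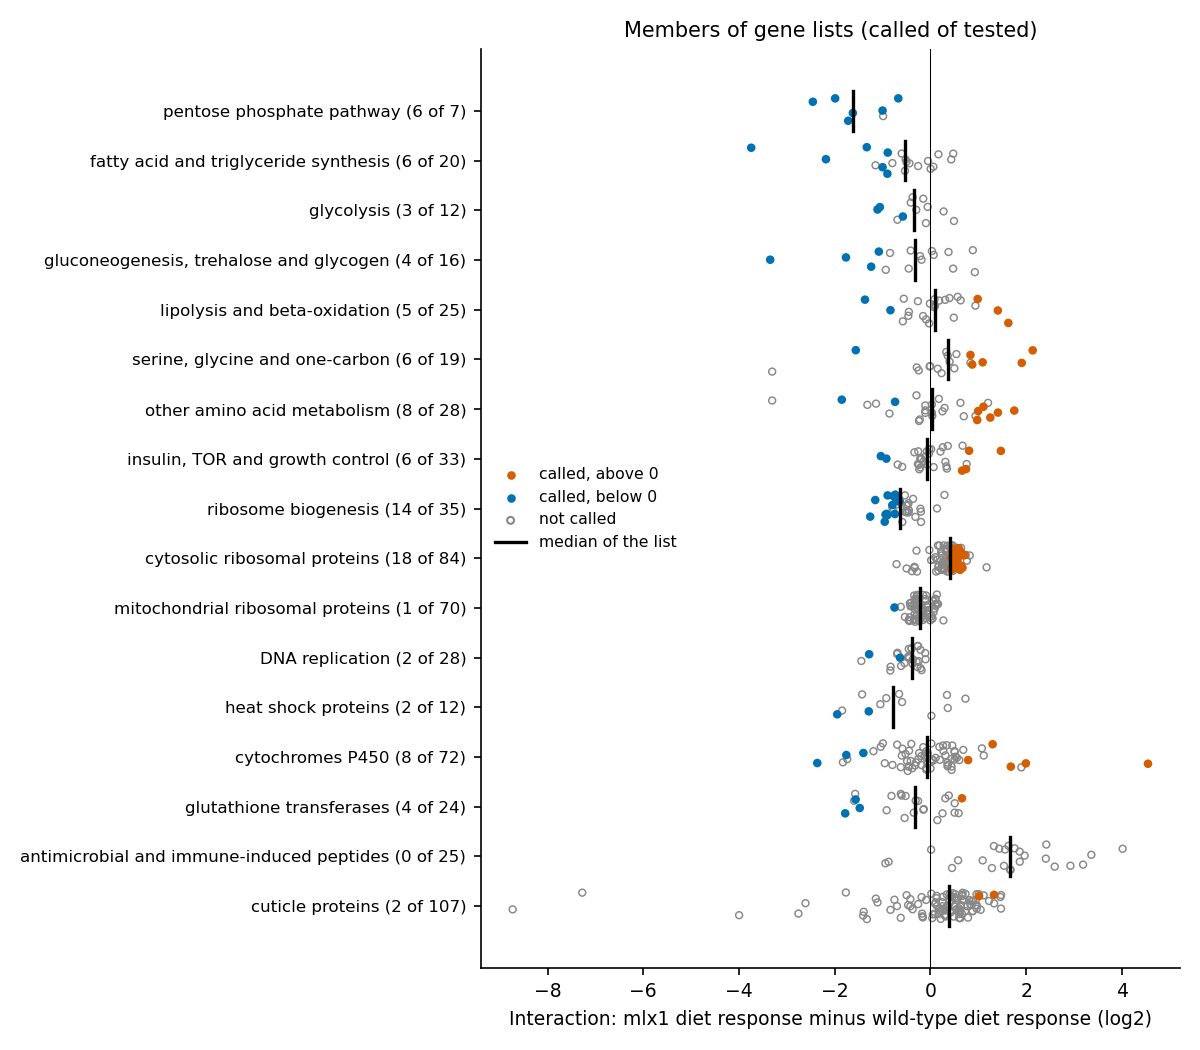
Interaction (log2, horizontal axis) of the measured genes of 17 lists, 1 row per list. Each point is a gene, coloured where its interaction was called above or below 0, and the black bar is the list's median; the pentose phosphate list sits furthest left among the metabolic lists and cytosolic ribosomal proteins sit right of 0.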

How the data were processed

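RNA of whole larvae was selected with oligo(dT), per the labels' protocols. The deposited table holds raw read counts per exon entry, made by the authors with BWA 0.5.9, SAMtools and HTSeq 0.6.1, per the submitters' processing notes. The sources used here name no genome build, annotation or strand setting, so reads of overlapping or antisense genes cannot be told apart, and coordinates are those of the table. Of 82046 entries, 9.81% overlap an entry of another gene, and the 42 with no gene name held at most 0.0148% of a library's counts and were left out. Column names carry the tag L2 on low sugar and L3 on high sugar, whose meaning is not given, so that tag and diet cannot be told apart.

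Entries were summed per gene name (text before the last colon). Genes were filtered with filterByExpr, scaled by TMM and fitted in edgeR 4.0.16 (R 4.3.3) with 1 mean per group and the robust quasi-likelihood test. The interaction, both sugar responses and both genotype effects were contrasts of this fit, so they share libraries. P-values were adjusted by Benjamini-Hochberg over all 10045 genes, with calls under 0.05, and CPM are TMM-normalized. The script was tested on simulated data. Library totals of 8924342 to 12507970 counts set the precision of low genes.

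Members and gene lists were chosen with earlier results of these data known. The naming rule took, per class and direction, up to 6 genes (4 enlarged, 8 reversed) with the largest interaction, a highest group mean of 10 CPM or more and no overlap of the diet libraries in at least 1 genotype. It added up to 4 genes per list by smallest p, and genes set by name. Alternatives were DESeq2 1.42.0, RLE and upper-quartile factors, other count filters, exon choices, a replicate block, a cuticle covariate, a threshold of 0.01 and leaving out libraries. A promoter motif search was not analysed here.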

Additional observations from a re-analysis of the deposited data

Results flagged for a closer look

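The 692 called interactions are the genes in which the sugar responses of the 2 genotypes differed by the test of the difference itself. Those below also had called responses of opposite sign in the 2 genotypes and met the naming rule. Below 0, falling in mlx1 larvae and rising in wild type, were Aph-4 (-2.44), the midgut lipase gene CG6295 (-2.43), Cyp28d2 (-2.36), lama (-1.41), CG7916 (-1.29), CG7841 (-1.24), the semaphorin receptor gene plexB (-1.22) and the proton pump gene Vha100-4 (-1.21). Above 0, rising in mlx1 larvae and falling in wild type, were CG33307 (2.62), CG18563 (2.50), lectin-24A (2.09), Spat (2.08), CG11300 (2.07), CG18003 (1.80), hgo (1.75) and CG34215 (1.70).

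CG6295 lost its call without mlx1 high sugar C, wild type high sugar B or wild type low sugar B, and CG7916 without mlx1 high sugar A, mlx1 high sugar C or wild type low sugar B. The gene plexB lost its call without mlx1 high sugar A, and lectin-24A without wild type high sugar B.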

How the results depend on the processing

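All of the 692 genes that could be tested in a setting kept their direction there; that was 673 at a minimum of 5 CPM and without overlapping exons, 689 with the exon entry of the highest mean, and 692 in each other setting. Of the values of named genes under the alternatives, 4066 kept their side of the threshold, 115 passed it newly and 417 no longer passed it. The named genes called in the fit reported kept their direction wherever they could be tested, which says nothing of the sign of uncalled genes. DESeq2 called 1202 interactions (480 above 0, 722 below), among them 682 of the 692, with 343 lost, 64 reduced, 166 enlarged, 84 reversed, 496 gained and 49 in neither class, and 653 genotype effects on low sugar. With the cuticle mean as a covariate 1366 were called (672 above, 694 below; 315 lost, 73 reduced, 217 enlarged, 103 reversed, 605 gained, 53 neither), with 2223 genotype effects on high and 610 on low sugar. At an adjusted p under 0.01, 172 were called (93 above, 79 below; 75 lost, 12 reduced, 6 enlarged, 14 reversed, 64 gained, 1 neither). Without exons that overlap another gene, 38.1% of 762 calls were above 0, against 48.1% in the fit reported. Without the 3 libraries with low cuticle means named above, 634 were called, with 82 reversed and 1 neither. The neither class held 7 genes with RLE factors and 19 at a minimum of 5 CPM.

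Without 1 library at a time, interactions numbered 271 to 1021 (143 to 431 above 0, 127 to 590 below), with 83 to 273 lost, 16 to 42 reduced, 21 to 130 enlarged, 25 to 77 reversed, 98 to 480 gained and 0 to 34 neither. The same range was 2025 to 3090 for the sugar response in mlx1 larvae, 1423 to 2755 in wild type, 825 to 1677 for the genotype effect on high sugar and 180 to 441 on low sugar.

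With the library letter as a replicate block 534 interactions were called (266 above 0), with 1 neither. Deviations of the 18 same-letter pairs correlated between -0.647 and 0.82, 10 of them over 0.1, and 6 of 12 libraries correlated best with their own letter, so the letters were not taken as pairs over the 4 groups. Between the genotypes on low sugar alone, all 3 same-letter pairs were over 0.1 (A 0.82, B 0.802, C 0.233). The block left 6 calls of 14 in ribosome biogenesis, 10 of 18 in cytosolic ribosomal proteins and 4 of 8 in P450 genes. It left 1 of 4 in glutathione transferases, 1 of 2 in fat body markers, and 0 of 1 each in mitochondrial ribosomal proteins and amylases and maltases. Low counts limit genes of a few CPM, and 2401 genes (23.9%) had an unadjusted p under 0.05.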

Other observations

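The share of tested genes with a called interaction was 8.29% on 2L, 6.96% on 2R, 6.98% on 3L, 6.46% on 3R and 5.67% on X. On chromosome 4, 11 of 83 tested genes (13.3%) were called. No test of these shares was made.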
